A study of Mus musculus with 2 samples.

Results

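Broad Hmga2 regions of low pileup were examined in the single Hmga2 ChIP-seq peak list of the series. They were chosen by 2 measured values, as peaks on autosomes 1 to 19 with a length of 500 bp or more and a pileup under 10. Pileup is the number of overlapping ChIP fragments as deposited, a mean over the peak. This rule selected 1190 regions out of 34086 autosomal peaks (3.49%) and 34597 peaks in all. They were compared with short peaks of the same pileup limit, which were 16997 autosomal peaks of 134 to 200 bp, 134 bp being the shortest length in the list.

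The chromatin came from E14Tg2a, a mouse embryonic stem cell line, which per the labels had been induced into stabilized epiblast-like cells (EpiLCs). The labels name no genetic change in these cells. According to the methods, the ChIP-seq material was instead epiblast stem cells (EpiSCs) derived from induced pluripotent cells. There was 1 library precipitated with an anti-Hmga2 antibody and 1 input library without antibody, and the peak list belongs to the former. The labels and the methods also differ in the fragment length after sonication, which is longer in the labels. With 1 ChIP library there is no error between experiments and no test between conditions. Intervals below cover only the counting error of peaks in this list, and no p-value was computed, because peaks of 1 library are not replicates. Neighbouring peaks share their surroundings, so the intervals of the density and distance measures and of the chromosome shares, which treat peaks as independent, are too narrow.

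Hmga2 belongs to the high-mobility group A proteins, small architectural proteins of chromatin that contact the minor groove of A+T-rich DNA through short AT-hook motifs. They are not known to recognize 1 long sequence, and they are abundant in early embryonic cells and scarce in most adult tissues. A ChIP-seq peak caller can report such a protein either as short peaks about the size of a DNA fragment or as longer regions, when neighbouring enriched stretches are joined. In the MACS2 settings of the study the calling of broad regions was switched on, and in this mode the pileup and the scores of a region are averages over its length. No peak of the autosomes lay closer to another than 304 bp from edge to edge.

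The broad regions were broad only relative to the other peaks. The median broad region measured 580 bp (quartiles 533 and 677 bp), and 518 of them reached 600 bp, 108 reached 800 bp and 20 reached 1000 bp. Together they covered 741 kb, or 9.28% of the bases in autosomal peaks. Just above the limit, 97 regions lay within the first 10 bp, and just below it there were 143 peaks of low pileup within 10 bp, with a median of 21 other peaks within 500 kb in both. For pileup, 43 of the regions lay within 1 unit below the limit, and 27 long autosomal peaks lay within 1 unit above it, from 10 upwards.

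**Figure D1:**
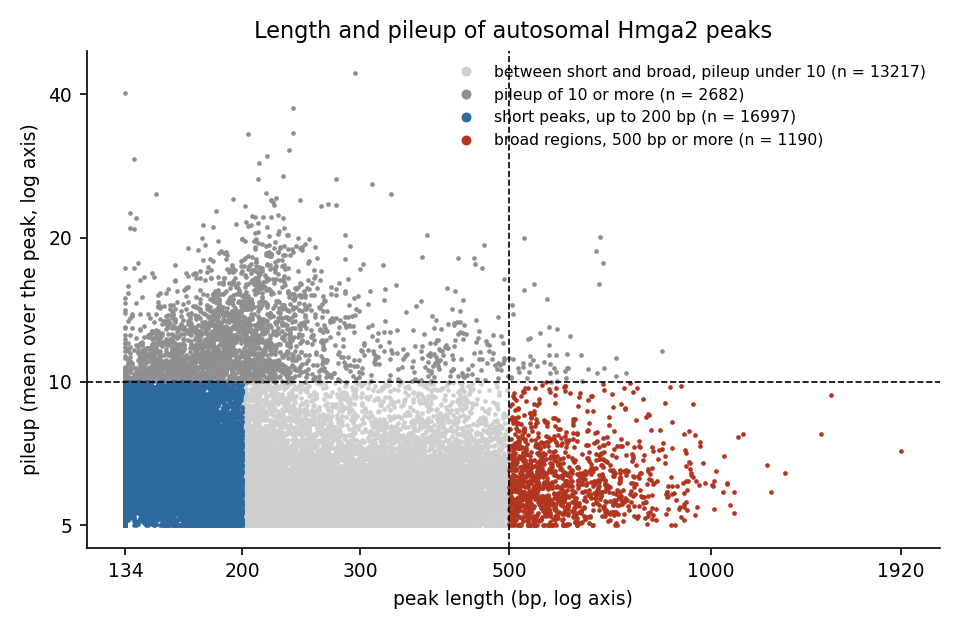
Each point is an autosomal Hmga2 peak, with its length in bp on the horizontal axis and its pileup on the vertical axis, both on log axes, and dashed lines at 500 bp and at a pileup of 10. The 1190 broad regions fill the lower right, mostly under 1000 bp, and only 54 autosomal peaks of 500 bp or more have a pileup of 10 or more.

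The broad regions did not have a higher mean pileup than the short peaks. As a mean over each peak, the pileup does not give the height of its highest point. The median pileup was 6.09 in the broad regions (quartiles 5.56 and 6.89) and 6.60 in the short peaks (5.82 and 7.56). The median fold enrichment over the local background was 3.66 in broad regions and 3.91 in short peaks, after the displaced decimal points of the list had been restored. Both length and pileup were used to choose the groups, and fold follows from pileup, so these values describe the groups and nothing was tested on them. Pileup multiplied by length and divided by 134 bp gives the number of fragments of 134 bp that would fill a peak. Its median was 27.8 in broad regions (range 18.7 to 105.6) and 7.28 in short peaks (5 to 14.7). If 1 unit of pileup is 1 fragment, the exact 95% Poisson interval of a count of 28 runs from 18.6 to 40.5 and that of a count of 7 from 2.81 to 14.4. The limits of length and pileup fix that these ranges cannot overlap, so they describe the depth behind each kind of peak and no comparison was drawn from them.

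Most broad regions passed the usual threshold of the false discovery rate. A q under 0.05 was found in 868 of the 1190 (72.9%, 95% Wilson interval 70.3% to 75.4%). The share among all 34086 autosomal peaks was 72.4%, and among short peaks it was 82.5%. At a q under 1e-05 only 7 broad regions and 49 short peaks were left. The q of a peak depends on its mean pileup, which the rule limits, and on its local background, and nothing is read from these shares.

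The background that the peak caller used was close to its minimum in both groups. Computed back from pileup and fold, it had a median of 0.889 in the broad regions (quartiles 0.846 and 0.986) and of 0.851 in the short peaks (0.844 and 0.983), compared with 0.843 as the lowest of the list. A background within 1% of that minimum was seen in 30.3% of broad regions (95% Wilson interval 27.8% to 33.0%) and in 50.2% of short peaks (49.5% to 51.0%). Over a longer region the average takes in more positions, and its part in this difference was not tested.

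The study describes Hmga2 as spread over chromatin besides its discrete sites, which raises the question whether broad regions lie where peaks are dense. To address it, the other peak centres within 500 kb of each centre were counted. This measure was not used to choose the regions, but length was. A caller that joins neighbouring enriched stretches may tie length to local density, which was not tested. The median was 22 around broad regions (95% interval 21 to 23, quartiles 14 and 32) and 16 around short peaks (16 to 17, quartiles 11 and 26), a difference of 6. The quartile ranges overlap widely, so the difference is a shift between distributions and does not separate single peaks. At least 30 other peaks were found around 364 broad regions (30.6%, 95% Wilson interval 28.0% to 33.3%) and around 17.9% of short peaks (17.3% to 18.5%). At most 4 were found around 25 broad regions (2.10%, 1.43% to 3.08%) and 3.63% of short peaks (3.36% to 3.92%). Compared with all other autosomal peaks, which had a median of 17, the difference was 5.

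The shift had the same direction on most chromosomes, but it was resolved on only some of them. The median around broad regions was higher than around short peaks on 18 of the 19 autosomes, by 1 to 11 peaks, and equal on chromosome 7, at 10. It was widest on chromosome 8, with 30 compared with 19, and on chromosome 5, with 27 compared with 16.5. The 95% intervals of both medians were apart on 10 autosomes (chromosomes 1, 2, 3, 4, 5, 6, 8, 10, 12 and 15). On the other 9 they overlapped or met, as on chromosome 9, with 16 compared with 14, and on chromosome 14, with 29 compared with 25. When the short peaks were weighted to the chromosome shares of the broad regions, the difference was 5 peaks.

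Local density did not decrease from any length class to the next among the low-pileup peaks. The median number of other peaks within 500 kb was 16 for peaks of 134 bp, 17 from 135 to 200 bp, 18 from 201 to 300 bp and 19 from 301 to 499 bp. Within the broad regions it was 21 at 500 to 599 bp (n = 672), 22 at 600 to 799 bp (n = 410) and 26.5 at 800 bp or more (n = 108, 95% interval 20 to 29). The intervals of the 3 broad classes overlap. Over single broad regions, Spearman's rho of length and local density was 0.10 (n = 1190 regions of 1 library). That of pileup and local density was of similar size and opposite sign, at -0.11.

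**Figure D2:**
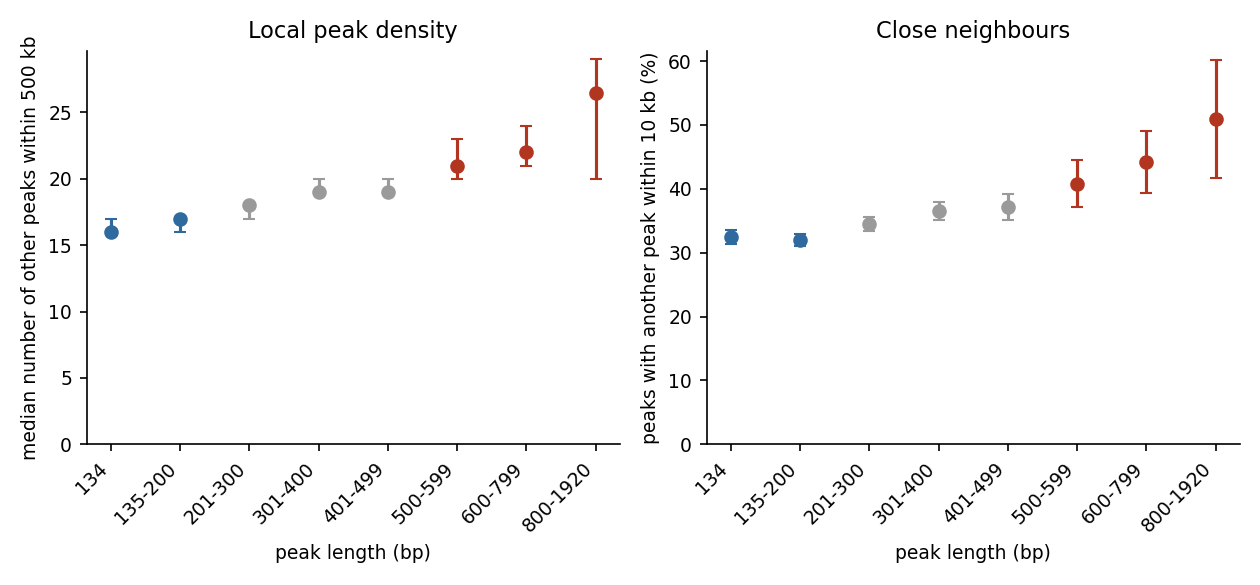
Low-pileup autosomal peaks are grouped by length in bp on the horizontal axis, with short peaks in blue, broad regions in red and lengths between them in grey. Points give the median number of other peaks within 500 kb (left, with distribution-free 95% intervals) and the percent whose nearest centre is at most 10 kb away (right, with 95% Wilson intervals). The short classes lie at 16 and 17 peaks and at 32.4% and 32.0%, and the longest class lies at 26.5 peaks and 50.9%.

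The same relation seen from the other side was the share of broad regions among all autosomal peaks. Where 5 to 9 other peaks lay within 500 kb, 1.93% of the peaks were broad regions (104 of 5390, 95% Wilson interval 1.60% to 2.33%). The share was 2.93% (2.65% to 3.23%) at 10 to 19 other peaks and 4.04% (3.63% to 4.51%) at 20 to 29. It reached 5.31% (4.66% to 6.04%) at 30 to 39 and 5.66% (4.84% to 6.61%) at 40 or more, where the intervals overlap. Short peaks made up 52.5% of the peaks at 5 to 9 others (51.2% to 53.9%) and 44.3% at 40 or more (42.4% to 46.2%), the opposite order.

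**Figure D3:**
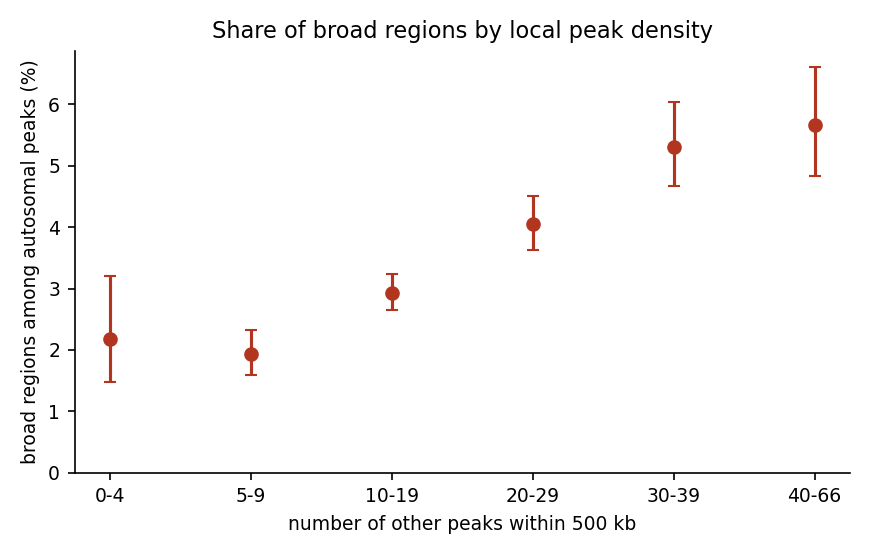
The horizontal axis groups autosomal peaks by the number of other peaks within 500 kb, and the vertical axis gives the percent of them that are broad regions, with 95% Wilson intervals. The share was 2.19% at 0 to 4 other peaks, 1.93% at 5 to 9 and 5.66% at 40 to 66.

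Broad regions also had closer neighbours. The median distance from centre to centre of the nearest other peak was 13.4 kb for broad regions (95% interval 12.1 to 15.0 kb) and 18.7 kb for short peaks (18.3 to 19.2 kb), a ratio of 0.717. Another centre lay within 10 kb of 510 broad regions (42.9%, 95% Wilson interval 40.1% to 45.7%) and of 5468 short peaks (32.2%, 31.5% to 32.9%), a difference of 10.7 percentage points (95% Newcombe interval 7.81 to 13.6). The share was higher for broad regions on all 19 autosomes, and the median distance was shorter on 18 of them and equal on chromosome 19. No other peak within 100 kb was found for 51 broad regions (4.29%, 3.27% to 5.59%) and for 7.38% of short peaks (6.99% to 7.78%).

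At the shortest distances the groups were not resolved. Another centre lay within 1 kb of 2.35% of broad regions (1.63% to 3.38%) and 3.06% of short peaks (2.81% to 3.33%). Measured from edge to edge, a gap of at most 1 kb was found for 62 broad regions (5.21%, 4.09% to 6.62%) and for 4.11% of short peaks (3.82% to 4.42%), and the Newcombe interval of the difference included 0 in both measures. A region of 500 bp takes up part of this distance itself.

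The excess of neighbours reached over the whole window examined. In the first 5 kb from the centre there were 29.3 other peaks per Mb around broad regions and 20.5 around short peaks, a ratio of 1.43 that rests on 349 and 3482 neighbours. From 5 to 10 kb the ratio was 1.45, from 10 to 20 kb it was 1.27 and from 100 to 200 kb it was 1.23. Between 350 and 500 kb there were still 22.6 peaks per Mb around broad regions and 18.5 around short peaks, a ratio of 1.23. The ratio was thus highest in value within 10 kb and still above 1 at the edge of the window. No interval was computed for these ratios, so a difference between the distance ranges is not resolved.

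**Figure D4:**
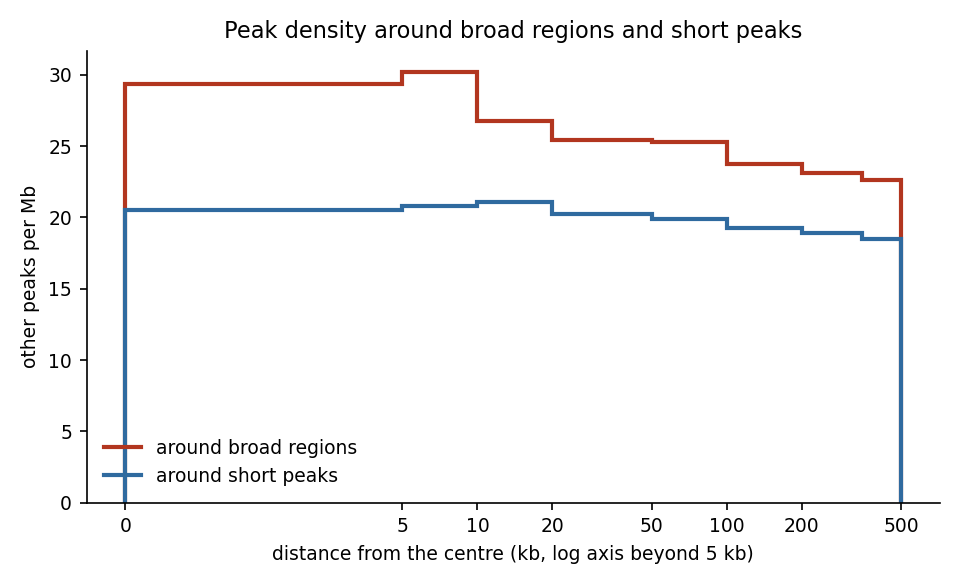
The horizontal axis is the distance from the peak centre in kb, on a log axis beyond 5 kb, and the vertical axis is the number of other peaks per Mb in each distance range, for broad regions (red) and short peaks (blue). The red line lies above the blue in every range, at 29.3 compared with 20.5 in the first 5 kb and 22.6 compared with 18.5 at 350 to 500 kb.

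Broad regions were also found near each other. Another broad region lay within 10 kb of 57 broad regions (4.79%, 3.72% to 6.16%), while a broad region lay within 10 kb of 1.82% of short peaks (1.63% to 2.04%). Peaks of any kind were 1.43 to 1.45 times as dense around broad regions as around short peaks within this distance. Within 500 kb the shares were 56.6% and 45.7%, and broad regions made up 4.82% of all peaks within 500 kb of a broad region and 4.12% of those around a short peak. The nearest peak was itself 500 bp or longer for 77 broad regions (6.47%, 5.21% to 8.01%) and for 3.49% of short peaks (3.23% to 3.78%), compared with 3.65% of all autosomal peaks that have this length. It was 200 bp or shorter for 51.9% of broad regions and 54.9% of short peaks.

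Because broad regions had lower pileups than short peaks, the groups were compared within ranges of pileup. At a pileup of 5 to under 6 the median number of other peaks within 500 kb was 23 around 536 broad regions (21 to 24) and 18 around short peaks (17 to 18). At 6 to under 7 it was 23 (21 to 24) and 17 (16 to 17), and at 7 to under 8 it was 22 (17 to 26) and 16 (15 to 16). At 8 to under 10, with 106 broad regions, it was 15 (13 to 17) and 14 (14 to 15), so that a difference in local density was not detectable in this range. The share with another peak within 10 kb was 44.96% (40.8% to 49.2%) for broad regions and 33.8% (32.6% to 35.1%) for short peaks at a pileup of 5 to under 6. It was 38.4% (33.7% to 43.4%) and 32.0% (30.8% to 33.3%) at 6 to under 7, where the difference was smallest and the intervals nearly met. At 7 to under 8 it was 44.2% (36.8% to 51.8%) and 31.6% (30.1% to 33.2%), and at 8 to under 10 it was 46.2% (37.0% to 55.7%) and 30.1% (28.5% to 31.8%). Split by background, the medians were 23 and 17 for peaks within 1% of the lowest background and 21 and 16 for the others.

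In stricter lists the difference in local density was smaller, while the ratio of nearest distances was not closer to 1 at a fold of at least 4. With only peaks of a q under 0.05 kept, the difference in local density was 3 peaks (95% interval 2 to 4). The ratio of distances was 0.741 (0.637 to 0.868) in that list. With all peaks counted as neighbours of its members and comparison peaks, the difference in local density was 5 (4 to 7). With only peaks of at least 4-fold enrichment kept as members, comparison peaks and neighbours, 284 broad regions were left and the difference in local density was 1 peak (95% interval 0 to 2). The ratio of nearest distances was 0.653 (0.470 to 0.878) there, compared with 0.717 in the whole list. With the same members and comparison peaks but all peaks counted as neighbours, the difference in local density was 4 (1 to 7). The density around long peaks with a pileup of 10 or more, of which there were 54, had a median of 14 (11 to 16), lower than around broad regions.

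The share of broad regions varied over the autosomes. Over all autosomes, broad regions were 6.54% of broad regions and short peaks together (95% Wilson interval 6.19% to 6.91%). The share was highest on chromosome 14, with 91 broad regions and 953 short peaks (8.72%, 7.15% to 10.6%), and lowest on chromosome 7, with 26 and 638 (3.92%, 2.69% to 5.68%), a difference of 4.80 percentage points. Chromosome 18, with 27 broad regions (4.17%, 2.88% to 6.0%), and chromosome 11, with 33 (4.55%, 3.26% to 6.32%), also had intervals below the pooled share. The intervals of the other 15 autosomes included it. Without the 1 Mb bin that held the most broad regions, chromosome 14 kept 82 broad regions and 948 short peaks (7.96%, 6.46% to 9.77%), and its interval included the pooled share too. Per Mb of the span covered by peaks, broad regions ranged from 0.175 on chromosome 7 to 0.746 on chromosome 14.

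**Figure D5:**
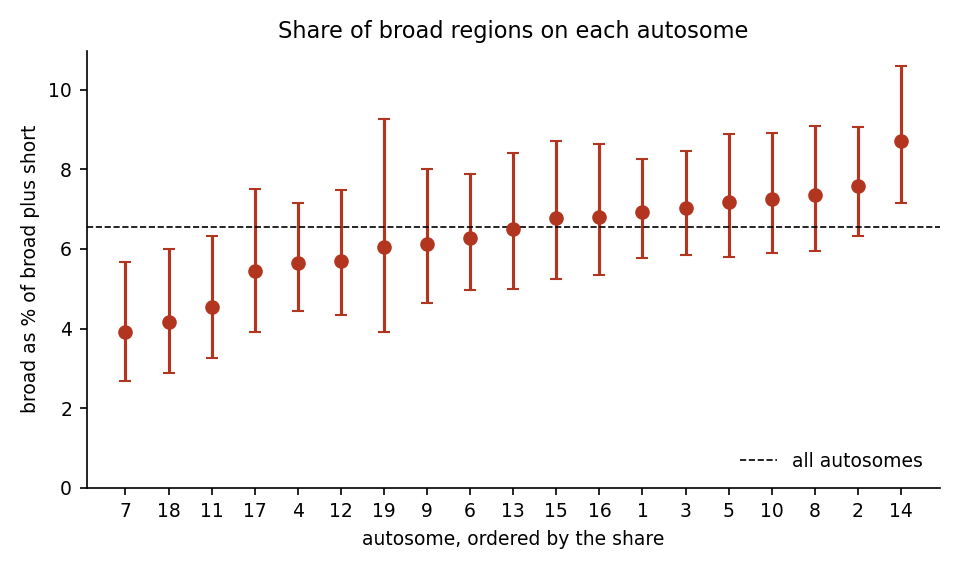
For each autosome, ordered by its value, the vertical axis gives broad regions as a percent of broad regions plus short peaks, with 95% Wilson intervals and the pooled share of 6.54% as a dashed line. Chromosomes 7, 18 and 11 lie below the line and chromosome 14 above it with their whole intervals, which treat clustered regions as independent; without its fullest bin the interval of chromosome 14 reaches down to 6.46%.

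The share of broad regions went with the peak density of the chromosome. Over the 19 autosomes, Pearson's r with peaks per Mb was 0.72 and Spearman's rho 0.71, and r was 0.65 when chromosomes 7 and 16, at the extremes of density, were left out. With the A+T percent of the chromosome in GRCm38, r was 0.51 and rho 0.50, and r was 0.40 without chromosomes 11 and 3. With protein-coding genes per Mb, r was -0.47 and rho -0.27, and r was -0.04 without chromosomes 7 and 11, so this relation rested on those chromosomes. These values describe 19 chromosomes of 1 library, and share and density are counted on the same peaks.

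Along the chromosomes, 780 of the 2393 bins of 1 Mb that held a peak held a broad region. A single broad region was found in 526 bins, and 36 bins held 4 or more, with 165 broad regions in all. The fullest bin, on chromosome 14 from 52000001 to 53000000, held 9 broad regions among only 22 peaks, of which 5 were short. The next were on chromosome 15 from 47000001 to 48000000, with 6 broad regions among 49 peaks, and on chromosome 8 from 55000001 to 56000000, with 6 among 33.

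In the fullest bin, 8 of the 9 broad regions lay between 52009533 and 52139606. The longest region of the list, 1920 bp at 52119052 to 52120971, was one of them, with a pileup of 7.14, a fold of 4.16 and 17 other peaks within 500 kb. Its nearest peak was another broad region, 713 bp long at 52117307 to 52118019, with a pileup of 9.43. The local density of 17 was near that of short peaks, while 13 of these 17 peaks lay within 100 kb. The backgrounds of these 8 regions ran from 0.956 to 1.56, all above the median of 0.889.

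The next longest regions formed a pair on chromosome 12. They were 1512 bp at 8639720 to 8641231, with a pileup of 9.36, and 1460 bp at 8637923 to 8639382, with a pileup of 7.78. The gap of 337 bp between them was the smallest between any 2 broad regions. Their backgrounds, 1.54 and 1.40, were above the upper quartile of 0.986.

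The remaining 7 of the 10 longest regions were 1084 to 1291 bp long and lay on 5 chromosomes. On chromosome 1 they were found at 112874539 to 112875829, with 38 other peaks within 500 kb, and at 45375662 to 45376757, with 36. On chromosome 3 the region at 46993054 to 46994283 had a pileup of 5.88 and 42 other peaks, and on chromosome 9 that at 78854211 to 78855423 had a pileup of 6.70 and 29 other peaks. The region on chromosome 10 at 15117589 to 15118704 had 24 other peaks within 500 kb but the nearest at 46.8 kb. Both on chromosome 15 were 1084 bp long. The one at 29051595 to 29052678 had 18 other peaks and the one at 102442456 to 102443539 had 9. Length and surroundings thus varied widely even among the longest regions.

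The surroundings ranged from crowded to nearly empty. The most other peaks within 500 kb, 65, were found around 2 broad regions, 625 bp at 95351346 to 95351970 on chromosome 14 and 615 bp at 67362596 to 67363210 on chromosome 16, with pileups of 5.36 and 6.61. The fewest, 1, were found around 526 bp at 35655962 to 35656487 on chromosome 11 and 512 bp at 87242475 to 87242986 on chromosome 3. These isolated regions had pileups of 7.99 and 8.22 and their nearest peaks at 239.7 kb and 379.8 kb.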

How the data were processed

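The authors trimmed the reads, mapped them with BWA, discarded ambiguous alignments and called broad regions with MACS2, with the input as control and without pooling. The deposited list holds positions, lengths and the pileup, a signal that was used as deposited. Its scores (fold, -log10 p and -log10 q) were deposited with displaced decimal points, since 103706 of 103715 values of 4 or more digits had 3 decimals. The points of fold and p were put back so that fold, pileup and p fulfilled the Poisson relation of MACS2 (median misfit of p 0.473%, largest 13.7%). The point of q was not set by this relation but placed so that q followed its running median over p. The design had assumed scores as named in the header. The list gives no read totals, so the depth is unknown.

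Positions are 1-based. The submitters' processing notes name mm9, while the methods of the study name both mm9 and GRCm38 for the mapping. In the list, 136 peaks, 4 of them broad regions, end beyond their GRCm38 chromosome. GRCm38, the genome used here, served only for chromosome ends, A+T percent and, with RefSeq genes, gene density, so no sequence or gene is given for a region.

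Distances run between centres, and all peaks of the list count as neighbours. Intervals are 95% (Wilson for shares, Newcombe for their differences, order statistics for medians). That of a difference or ratio of medians combines the ends of both. Regions named are the 10 longest, those with the most and the fewest neighbours, the closest pair and the fullest bins of 1 Mb. Python 3.11.15, numpy 2.4.6, pandas 2.3.3, scipy 1.17.1 and statsmodels 0.14.6 were used, and the procedures were tested on simulated peaks. The groups, measures and limits were chosen with earlier results of these data known.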

Additional observations from a re-analysis of the deposited data

How the results depend on the processing

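The alternatives given here kept the direction of local density, of the share within 10 kb, of the nearest distance and of the spread over autosomes. At a distance of 1 kb, in contrast, the share with a neighbour was lower for broad regions (2.35% compared with 3.06%), with an interval of the difference that included 0. Leaving out chromosome 14 or the fullest 1 Mb bin, and counting all peaks as neighbours of members of q under 0.05 or of at least 4-fold enrichment, were alternatives chosen after the data had been seen. The number of broad regions was 3438 from 400 bp, 518 from 600 bp and 284 at a fold of at least 4, by construction of these limits. The difference in local density, 6 peaks, was 2 within 100 kb and 10 within 1 Mb, where smaller and larger windows hold fewer and more peaks. It was 3 among peaks with a q under 0.05 and 1 among peaks of at least 4-fold, where neighbours were also fewer. The difference in the share with a neighbour within 10 kb was 10.7 percentage points. It was 7.01 with broad regions from 400 bp and 7.27 against peaks of 201 to 499 bp, and the cause was not tested. At a fold of at least 4 it was 6.50 (2.26 to 11.6). With all peaks counted as neighbours of the same members and comparison peaks, it was 10.76 (5.06 to 16.7). With that last one counted, 12 alternatives for this share and 11 for local density stayed within the interval of the reported value. So did all 14 for the ratio of nearest distances (0.649 to 0.807). The spread over autosomes did so in all 9 (3.19 to 6.12 percentage points). No paired analysis was possible because the ChIP was done once. Low pileups and the unknown depth limit what can be said of any single region.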

Other observations

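The distal ends of the autosomes held a smaller share of the broad regions than of the short peaks. The last 10 Mb before the last peak held 55 broad regions (4.62%, 95% Wilson interval 3.57% to 5.97%) and 6.35% of short peaks (5.99% to 6.72%). The last 5 Mb held 24 (2.02%, 1.36% to 2.98%) and 3.45% (3.19% to 3.74%). These intervals treat clustered regions as independent, and in the last 10 Mb they nearly met. In the first 10 Mb after the first peak the shares were 5.97% (4.76% to 7.46%) and 6.32% (5.97% to 6.70%), and no difference was resolved.

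Chromosome X was outside the selection. Among its 467 peaks there were 6 of 500 bp or more with a pileup under 10 and 288 short ones, which makes 2.04% of both together (95% Wilson interval 0.939% to 4.38%), compared with 6.54% on the autosomes (6.19% to 6.91%).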
